A study of Mus musculus with 9 samples.

Results

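The genes described here encode transcription factors of the AP-1 and IRF families, some of which meet on composite DNA elements of activated lymphocytes. They are the BATF factors *Batf* and *Batf3*, their JUN partners *Junb* and *Jund*, and *Fosl2*, an AP-1 gene of the FOS family. The others are the interferon regulatory factors *Irf4*, *Irf8*, *Irf1*, *Irf2* and *Irf5*. These 10 genes are 10 of the 17596 genes in the deposited expression table and were found there by gene symbol. All 10 passed the filter of a mean of at least 1 FPKM (fragments scaled to transcript length and to all mapped fragments of the library), as did 10823 genes in all. The family was picked with *Batf3* in view, which was chosen by its low value in *Mct1*-deficient B cells on day 3. The difference between the genotypes on day 3 is therefore given below as a description, without a test.

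RNA was sequenced from primary splenic B cells of mice aged 6 to 8 weeks on a C57BL/6J background, in 9 libraries. The control was *Mb1Cre*, which carries the Cre recombinase at the *Mb1* (*Cd79a*) locus and so expresses it throughout the B cell lineage. *Mct1f/fMb1Cre* mice carry the same Cre and 2 floxed copies of *Mct1*, the gene of the monocarboxylate transporter MCT1, listed in the table as *Slc16a1*. Cells were taken untreated on day 0 (2 libraries of each genotype) or after 3 days with LPS at 10 μg/ml and IL-4 at 50 ng/ml, a mixture that drives class switching in culture (2 *Mb1Cre* and 3 *Mct1f/fMb1Cre* libraries). Labels do not tie the libraries to separate mice or cultures, so each p-value below measures only the spread between these libraries.

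BATF and BATF3 are small basic leucine zipper proteins without a transactivation domain of their own. They pair with JUN proteins, and the dimer recruits IRF4 or IRF8 to AP-1-IRF composite elements, where an AP-1 site lies next to an IRF core site. In B cells BATF and IRF4 are required for class switching, and IRF4 also for plasma cell formation. BATF3 is best known from the development of type 1 conventional dendritic cells, and IRF8 from those cells and from germinal center B cells.

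The sequences directly upstream of 4 of these genes are shown with exact matches to elements that their products bind. Sites farther from the start and inexact matches were not searched, so whether the genes carry such elements elsewhere is not known. *Batf3*, *Batf* and *Irf4* are the members called higher on day 3 than on day 0 in control cells. *Irf2* and *Irf5* are the members called lower, and of these only *Irf2*, whose window holds matches, is shown. Each run is the 250 bases before the RefSeq gene start on the gene strand (GRCm38.p6), with matches to the motifs named below in capitals.
Batf3, chr1:191098164-191098413, plus strand: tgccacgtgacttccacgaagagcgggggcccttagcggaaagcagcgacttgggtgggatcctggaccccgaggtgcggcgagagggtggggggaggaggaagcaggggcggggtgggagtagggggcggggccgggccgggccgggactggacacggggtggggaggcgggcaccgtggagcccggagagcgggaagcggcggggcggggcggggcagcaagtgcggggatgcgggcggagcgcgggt
Batf, chr12:85686470-85686719, plus strand: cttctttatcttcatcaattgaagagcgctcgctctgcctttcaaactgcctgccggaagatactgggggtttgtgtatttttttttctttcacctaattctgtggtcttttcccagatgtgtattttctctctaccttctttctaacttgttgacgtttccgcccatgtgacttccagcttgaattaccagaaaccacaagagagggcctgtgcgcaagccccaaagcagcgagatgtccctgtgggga
Irf4, chr13:30748983-30749232, plus strand: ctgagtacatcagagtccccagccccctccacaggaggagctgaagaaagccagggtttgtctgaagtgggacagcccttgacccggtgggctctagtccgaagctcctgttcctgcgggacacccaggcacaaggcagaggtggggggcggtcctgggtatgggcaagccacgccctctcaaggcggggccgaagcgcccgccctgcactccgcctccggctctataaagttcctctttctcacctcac
Irf2, chr8:46739495-46739744, plus strand: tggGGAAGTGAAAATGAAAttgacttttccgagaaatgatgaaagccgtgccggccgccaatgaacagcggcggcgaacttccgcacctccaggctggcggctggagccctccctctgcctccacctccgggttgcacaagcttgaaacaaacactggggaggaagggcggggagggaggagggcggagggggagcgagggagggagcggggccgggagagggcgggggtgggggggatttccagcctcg

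The AP-1 motif TGANTCA was searched on both strands from 250 bases before to 50 bases after each start. It occurred in 7.81% of 32851 RefSeq promoter windows and in 0 of the 12 windows of the 10 members (*Irf8* and *Irf1* have 2 windows each). With only 12 windows, 0 does not stand apart from that share. Paired IRF core sites, written as GAAA, 2 bases and GAAA, were in 3.44% of all windows and in those of *Irf2* (bases -241 to -232 from the start) and *Fosl2* (bases -221 to -212, other strand). The ETS-IRF composite, GGAA, 2 bases and GAAA, was in 2.72% of all windows and in that of *Irf2*, at bases -247 to -238, where it overlaps the paired core sites, and the capitals in the *Irf2* sequence mark both. AP-1-IRF composites, with GAAA directly before TGANTCA or GAAA 4 bases after it, were in 0.125% and 0.119% of windows and in none of the 12. The *Batf3* window had a GC content of 75.7%, compared with 49.7% for *Batf*, 61% for *Irf4*, 62.7% for *Irf2* and a median of 52.7% over all windows.

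Before the members, the labels were checked. *Slc16a1* had 22.6 and 23 FPKM in *Mb1Cre* and 10.8, 9.81 and 9.5 FPKM in *Mct1f/fMb1Cre* cells on day 3, and 3.71 to 4.33 FPKM in the 4 day 0 libraries, where the genotypes overlapped. The deposited value covers the whole gene and not the floxed segment alone. All 6 B cell markers were present, with summed levels of 3879 to 4302 FPKM on day 0 and 1870 to 2009 FPKM on day 3. Other cells were also represented on day 0. The sum of 7 myeloid markers was 1077 to 1850 FPKM on day 0. On day 3 it was 22.7 to 25.5 FPKM in *Mb1Cre* and 31.4 to 35.8 FPKM in *Mct1f/fMb1Cre* cells. T and NK cell markers summed to 30.7 to 34.7 FPKM on day 0 and 1.33 to 1.62 FPKM on day 3. Erythroid markers summed to 83.6 to 153 FPKM on day 0 and at most 0.33 FPKM on day 3. The plasma cell markers *Sdc1* and *Jchain* summed to 70.6 to 84.1 FPKM in *Mb1Cre* and 124 to 166 FPKM in *Mct1f/fMb1Cre* cells on day 0, and to 118 to 129 and 81.2 to 101 FPKM on day 3, nearly all of it *Jchain*. *Lyz2*, a myeloid lysozyme gene, had 614 to 809 FPKM on day 0. On day 3 it had 11.5 and 10.0 FPKM in *Mb1Cre* and 16.8, 17.6 and 20.4 FPKM in *Mct1f/fMb1Cre* cells. The part of myeloid cells in the genotype differences of the members was not tested. *Ddx3y*, a Y-linked gene, had at most 0.24 FPKM in 3 of the 4 day 0 libraries, 31.1 FPKM in *Mct1f/fMb1Cre* replicate 1, and 14.7 to 16.9 FPKM in all day 3 libraries. In *Mb1Cre* cells the presence of Y-linked transcripts and the day therefore cannot be told apart. In bulk samples such as these, fewer cells of a type and less RNA per cell cannot be told apart either.

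*Batf* rose on activation in both genotypes, and *Batf3* rose in control cells but had no call in *Mct1f/fMb1Cre* cells. *Batf* had 13.2 and 14.1 FPKM in *Mb1Cre* and 15.3 and 14.6 FPKM in *Mct1f/fMb1Cre* cells on day 0. On day 3 it had 181 and 165 FPKM in *Mb1Cre* and 146, 139 and 141 FPKM in *Mct1f/fMb1Cre* cells. Every day 3 library thus lay far above every day 0 library, with the *Mct1f/fMb1Cre* libraries below the control. The rise was 12.7-fold in *Mb1Cre* (log2 3.57, SE 0.0549; limma, adjusted p = 2.48e-12) and 9.52-fold in *Mct1f/fMb1Cre* cells (log2 3.17, SE 0.0501; limma, adjusted p = 2.18e-12). Log2 fold changes are on the scale of log2(FPKM + 1), which understates changes of low genes, and linear folds are ratios of mean FPKM. *Batf* in *Mct1f/fMb1Cre* cells on day 3 was at 82.2% of the control (log2 -0.28, SE 0.0501).

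*Batf3* had 5.73 and 8.36 FPKM in *Mb1Cre* and 6.84 and 7.65 FPKM in *Mct1f/fMb1Cre* cells on day 0. After 3 days of activation it had 28.8 and 25.2 FPKM in *Mb1Cre* and 5.44, 6.56 and 4.51 FPKM in *Mct1f/fMb1Cre* cells. The control libraries of day 3 stood apart from the others, which had at most 8.36 FPKM. *Batf3* rose 3.83-fold on activation in *Mb1Cre* cells (log2 1.82, SE 0.162; limma, adjusted p = 9.13e-07). In *Mct1f/fMb1Cre* cells the day 3 level was 76% of day 0 (log2 -0.35, SE 0.148; limma, adjusted p = 0.0434), a difference smaller than the limit of 0.5 set for a call. Over the alternative settings with all libraries the value ranged from -0.51, called with libraries scaled to the same total, to -0.08 with quantile normalization, and its adjusted p from limma was under 0.05 in 9 of 21 alternatives (range 0.00346 to 0.654). The day 3 libraries in both of these comparisons also entered the choice of *Batf3*.

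The level of *Batf3* in *Mct1f/fMb1Cre* cells on day 3 was 20.4% of the control (log2 -2.12, SE 0.148), among the lowest of the 10823 genes on the log2(FPKM + 1) scale. Close to it on that scale were *Ido1* at -2.11 and *Ctla4* at -2.08, named after their values were seen, and as a ratio of mean FPKM *Ctla4* was lower than *Batf3*, at 17.3% of the control. This is the value *Batf3* was selected on. On day 0, which the choice did not use, the genotypes overlapped, with a log2 difference of 0.05 (95% interval -0.30 to 0.41; limma, adjusted p = 0.935). *Batf3* is also a gene of type 1 conventional dendritic cells, and the summed level of 6 markers of those cells differed between the genotypes on day 3, from 22.7 to 22.8 FPKM in *Mb1Cre* and from 9.63 to 10.9 FPKM in *Mct1f/fMb1Cre* cells. *Flt3* and *Zbtb46* made up most of these sums. The defining markers *Clec9a* and *Cadm1* had at most 0.04 FPKM and *Xcr1* at most 0.26 FPKM in every day 3 library, against 2.23 to 6.67 FPKM for the 3 genes on day 0. What these cells contributed to the day 0 level of *Batf3* was not tested.

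**Figure D1:**
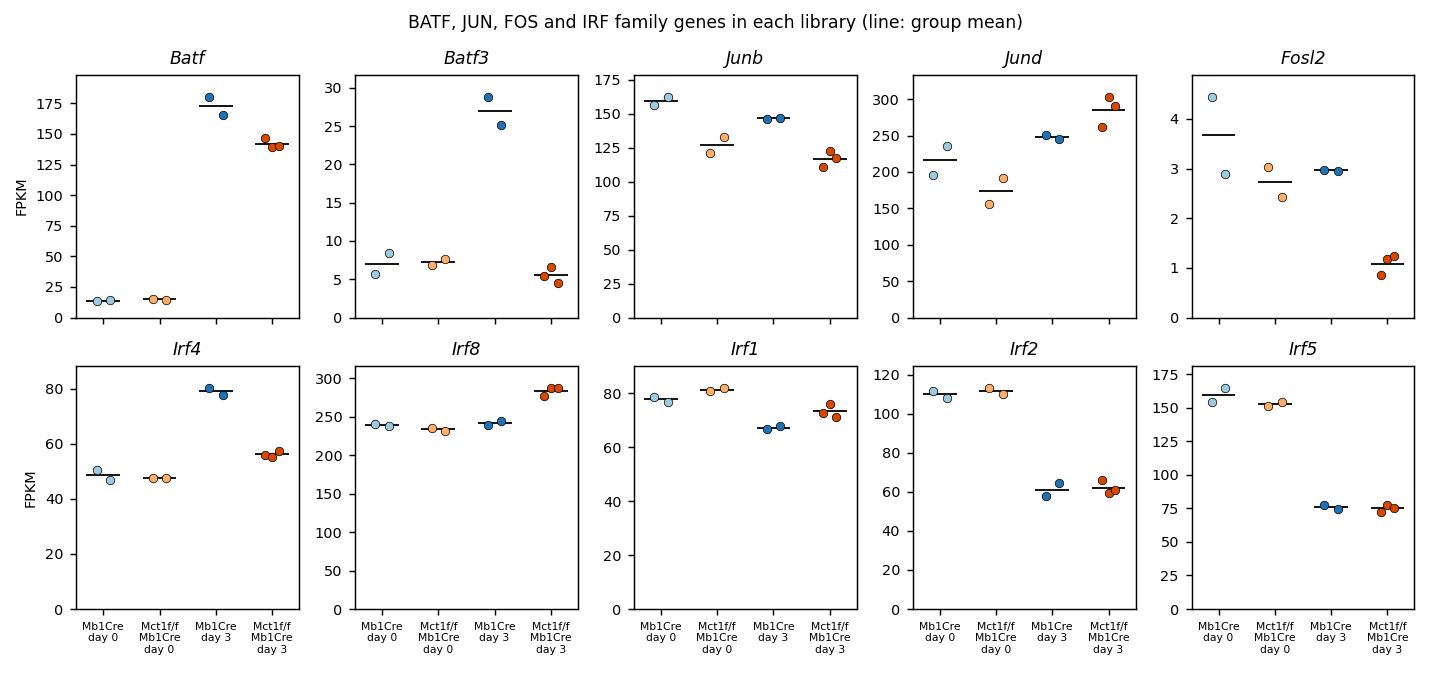
Level of each of the 10 genes (FPKM, linear axis from 0, scaled to each gene) in the 9 libraries, with 1 point per library, a line at the group mean, and groups by genotype and day. The *Batf3* panel shows the control libraries of day 3 at 25.2 and 28.8 FPKM above all others, whereas all day 3 libraries are high for *Batf*.

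Of the JUN proteins, which supply the other arm of the BATF dimer, *Junb* was lower in *Mct1f/fMb1Cre* cells on both days. *Junb* had 157 and 162 FPKM in *Mb1Cre* and 121 and 133 FPKM in *Mct1f/fMb1Cre* cells on day 0. The day 3 values were 146 and 147 FPKM in *Mb1Cre* and 111, 123 and 118 FPKM in *Mct1f/fMb1Cre* cells. On either day the highest *Mct1f/fMb1Cre* library was below the lowest control. The genotype difference was 79.6% of the control on day 0 (log2 -0.33, SE 0.0581; limma, adjusted p = 0.045) and 79.9% on day 3 (log2 -0.32, SE 0.053). The day 0 value passed the p threshold but not the log2 limit of 0.5, and its adjusted p was under 0.05 in 9 of 21 alternative settings (range 0.0137 to 0.366). Activation gave log2 differences of -0.12 in each genotype (limma, adjusted p = 0.0687 in *Mb1Cre* and 0.056 in *Mct1f/fMb1Cre* cells), which turned positive under median-of-ratios scaling.

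*Jund*, the JUN protein usually present in resting cells, had 196 and 236 FPKM in *Mb1Cre* and 156.5 and 191 FPKM in *Mct1f/fMb1Cre* cells on day 0. By day 3 the level was 251 and 246 FPKM in *Mb1Cre* and 262, 303 and 291 FPKM in *Mct1f/fMb1Cre* cells. The *Mct1f/fMb1Cre* libraries were thus below the control on day 0 and above it on day 3. *Jund* rose 1.64-fold on activation in *Mct1f/fMb1Cre* cells (log2 0.72, SE 0.0951; limma, adjusted p = 2.64e-05), and in *Mb1Cre* cells the log2 difference was 0.21 (SE 0.104; limma, adjusted p = 0.0867), with 0.0036 to 0.42 over the alternative settings with all libraries. The day 0 difference between the genotypes was -0.31 (95% interval -0.54 to -0.08; limma, adjusted p = 0.293), and the day 3 difference was 0.20.

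*Fosl2*, which encodes the FOS family protein FRA-2 and was the lowest member in every group, had 4.45 and 2.9 FPKM in *Mb1Cre* and 3.04 and 2.43 FPKM in *Mct1f/fMb1Cre* cells on day 0. On day 3 it had 2.98 and 2.95 FPKM in *Mb1Cre* and 0.86, 1.17 and 1.23 FPKM in *Mct1f/fMb1Cre* cells. The 3 *Mct1f/fMb1Cre* libraries of day 3 were lower than all 6 others. *Fosl2* fell on activation in *Mct1f/fMb1Cre* cells to 39.7% of day 0 (log2 -0.84, SE 0.139; limma, adjusted p = 1.61e-04), a call lost with a pseudocount of 5 (-0.35) and under quantile normalization (-0.32). In *Mb1Cre* cells its log2 difference was -0.22 (SE 0.152; limma, adjusted p = 0.202). On day 3 it was at 36.6% of the control (log2 -0.93, SE 0.139).

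Of the IRF genes whose products BATF-JUN dimers recruit, *Irf4* rose on activation in control cells, and *Irf8* had no call in either genotype. *Irf4* had 50.4 and 46.9 FPKM in *Mb1Cre* and 47.5 and 47.5 FPKM in *Mct1f/fMb1Cre* cells on day 0. After 3 days of activation it had 80.3 and 77.8 FPKM in *Mb1Cre* and 55.9, 55.2 and 57.5 FPKM in *Mct1f/fMb1Cre* cells. *Irf4* rose 1.63-fold in *Mb1Cre* cells (log2 0.69, SE 0.047; limma, adjusted p = 8.91e-08), with a value of 0.49, just under the limit, when libraries were scaled to the same total. In *Mct1f/fMb1Cre* cells it was 1.18-fold higher (log2 0.24, SE 0.0429; limma, adjusted p = 3.1e-04), below the limit of 0.5, with 0.06 at the same total (limma, adjusted p = 0.25, the highest of a range from 1.22e-06) and 0.45 with median-of-ratios scaling. The day 3 level in *Mct1f/fMb1Cre* cells was 71.1% of the control (log2 -0.49, SE 0.0429), whereas on day 0 the difference was -0.03 (95% interval -0.14 to 0.07; limma, adjusted p = 0.83). The summed plasma cell markers, nearly all *Jchain*, were also lower in *Mct1f/fMb1Cre* cells on day 3 and higher on day 0, as given above. *Sdc1* did not share this pattern. On day 3 it had 2.54 and 2.29 FPKM in *Mb1Cre* and 3.21, 2.65 and 2.67 FPKM in *Mct1f/fMb1Cre* cells, and on day 0 the genotypes overlapped. The part of plasma cells in the *Irf4* values was not tested.

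*Irf8* had 241 and 238 FPKM in *Mb1Cre* and 236 and 232 FPKM in *Mct1f/fMb1Cre* cells on day 0. The day 3 values were 239.5 and 244 FPKM in *Mb1Cre* and 277, 287 and 287 FPKM in *Mct1f/fMb1Cre* cells. The 3 *Mct1f/fMb1Cre* libraries of day 3 stood above the other 6. In *Mb1Cre* cells activation gave a log2 difference of 0.02 (95% interval -0.07 to 0.10; limma, adjusted p = 0.72), with a negative sign under scaling to the same total and quantile normalization. In *Mct1f/fMb1Cre* cells the level was 1.21-fold higher (log2 0.28, SE 0.0365; limma, adjusted p = 2.33e-05), below the limit of 0.5, with 0.10 to 0.50 over the alternative settings with all libraries. On day 3 *Irf8* in *Mct1f/fMb1Cre* cells was at 117% of the control (log2 0.23, SE 0.0365), and on day 0 at 97.6% (limma, adjusted p = 0.784). Type 1 conventional dendritic cells also express *Irf8*. The part of the fall in dendritic and myeloid cell markers between the days in the *Irf8* values was not tested.

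Of the other IRF genes, *Irf2* and *Irf5* fell on activation in both genotypes. *Irf2*, which encodes an antagonist of IRF1 at interferon response elements, had 112 and 108 FPKM in *Mb1Cre* and 113 and 109.9 FPKM in *Mct1f/fMb1Cre* cells on day 0. By day 3 the level was 57.9 and 64.4 FPKM in *Mb1Cre* and 66.2, 59.3 and 61.1 FPKM in *Mct1f/fMb1Cre* cells. The genotypes overlapped on both days, and the days did not. *Irf2* fell to 55.6% of day 0 in *Mb1Cre* cells (log2 -0.84, SE 0.0622; limma, adjusted p = 1.9e-07) with a log2 change of -0.83 in *Mct1f/fMb1Cre* cells (SE 0.0568; limma, adjusted p = 8.35e-08).

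*Irf5*, a factor downstream of Toll-like receptors such as the one for LPS, had 154 and 165 FPKM in *Mb1Cre* and 151 and 154 FPKM in *Mct1f/fMb1Cre* cells on day 0. On day 3 it had 77.7 and 74.5 FPKM in *Mb1Cre* and 72.7, 77.4 and 75.5 FPKM in *Mct1f/fMb1Cre* cells. It too was lower in every day 3 library than in any day 0 library. The days did not overlap for 91.9% of all tested genes in *Mb1Cre* and 89.8% in *Mct1f/fMb1Cre* cells, so such a separation is common here. Myeloid cells also express *Irf5*, and the part of the fall in myeloid markers between the same days in these values was not tested. *Irf5* fell to 47.7% of day 0 in *Mb1Cre* cells (log2 -1.06, SE 0.0488; limma, adjusted p = 3.25e-09), and by 1.02 on the log2 scale in *Mct1f/fMb1Cre* cells (SE 0.0445; limma, adjusted p = 1.97e-09). The genotype difference of *Irf5* was -0.06 on day 0 (limma, adjusted p = 0.683) and -0.02 on day 3.

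*Irf1*, an activator of interferon response genes, had 78.7 and 76.9 FPKM in *Mb1Cre* and 80.9 and 82 FPKM in *Mct1f/fMb1Cre* cells on day 0. After 3 days of activation it had 66.8 and 67.9 FPKM in *Mb1Cre* and 72.7, 76.2 and 71.4 FPKM in *Mct1f/fMb1Cre* cells. Its activation differences of -0.21 in *Mb1Cre* (SE 0.0436; limma, adjusted p = 0.00104) and -0.15 in *Mct1f/fMb1Cre* cells (SE 0.0398; limma, adjusted p = 0.0048) were below the limit of 0.5 and turned positive under median-of-ratios scaling. Relative to the control, *Irf1* in *Mct1f/fMb1Cre* cells had 105% on day 0 (limma, adjusted p = 0.611) and 109% on day 3.

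**Figure D2:**
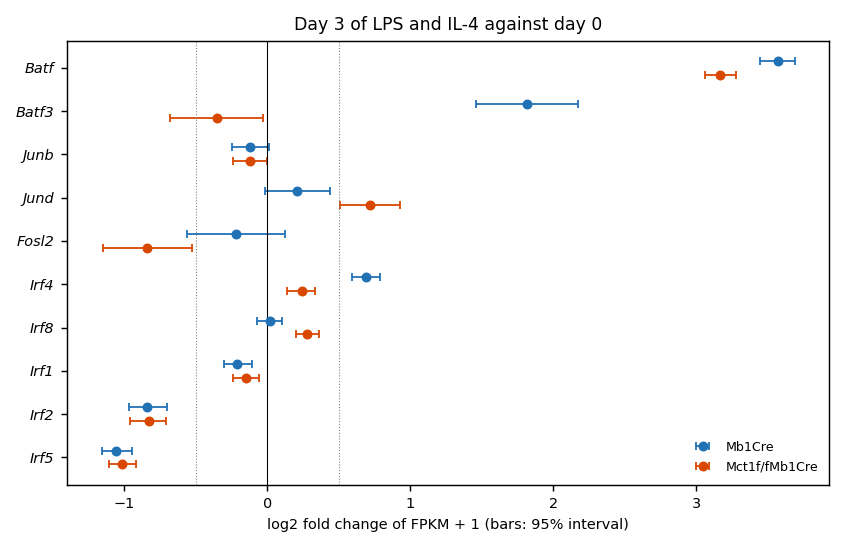
Log2 fold change of FPKM + 1 from day 0 to day 3 for each gene in *Mb1Cre* (blue) and *Mct1f/fMb1Cre* cells (orange), with 95% intervals from limma and dotted lines at the limit of 0.5 in size. *Batf* lies far to the right in both genotypes (3.57 and 3.17) and *Irf2* and *Irf5* to the left in both, while *Batf3* lies at 1.82 in one and -0.35 in the other.

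In *Mb1Cre* cells activation called 5 of the 10 members, with *Batf*, *Batf3* and *Irf4* higher and *Irf2* and *Irf5* lower. Here a call needed both an adjusted p below 0.05 and a log2 change larger than 0.5 in either direction. Among all tested genes 57.8% were called in this comparison (24.8% higher and 33.0% lower), so 5 of 10 is near the background. In *Mct1f/fMb1Cre* cells 5 members were called again, with *Batf* and *Jund* higher and *Irf2*, *Irf5* and *Fosl2* lower, against 56.5% of all genes (23.4% higher and 33.2% lower). The median log2 change of the members was -0.05 and -0.13, and that of all tested genes -0.12 and -0.14. The shift of all genes depended on the scaling and ranged from -0.31 to 0.07 in *Mb1Cre* and from -0.30 to 0.06 in *Mct1f/fMb1Cre* cells.

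Between the genotypes on day 0, limma called 0 of the 10 members, against 0.277% of all genes. At an adjusted p under 0.05 without the log2 limit, 1 member (*Junb*) passed, against 0.416% of all genes, and at an unadjusted p under 0.05 there were 3 (*Batf*, *Junb* and *Jund*), against 11.7%. The values of the 2 groups did not overlap for 5 members, 3 lower (*Irf8*, *Junb* and *Jund*) and 2 higher (*Batf* and *Irf1*), in a comparison where 38.4% of all genes did not overlap. The median difference was -0.03 for the members.

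On day 3, 2 members (*Batf3* and *Fosl2*) were past both limits, where 2.42% of all genes were, and 6 were past the p threshold alone, where 15.2% of all genes were. The genotypes did not overlap for 8 members, with *Batf*, *Batf3*, *Irf4*, *Junb* and *Fosl2* lower and *Irf8*, *Irf1* and *Jund* higher, where 47.1% of all genes did not overlap. Since the family was selected on this contrast, nothing is read from these counts. The median log2 difference on day 3 was -0.15 for the members and -0.01 for all tested genes. The change of the genotype difference from day 0 to day 3 was past both limits for 2 members, *Batf3* (-2.17, SE 0.219) and *Jund* (0.51, SE 0.141), where 3.23% of all genes were, and past the p threshold alone for 5, where 9.42% were. This interaction contains the day 3 contrast and shares its libraries with every comparison above, so it too is a description. It was -0.45 (SE 0.0637) for *Irf4*, -0.40 for *Batf*, 0.26 for *Irf8* and -0.62 for *Fosl2*.

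**Figure D3:**
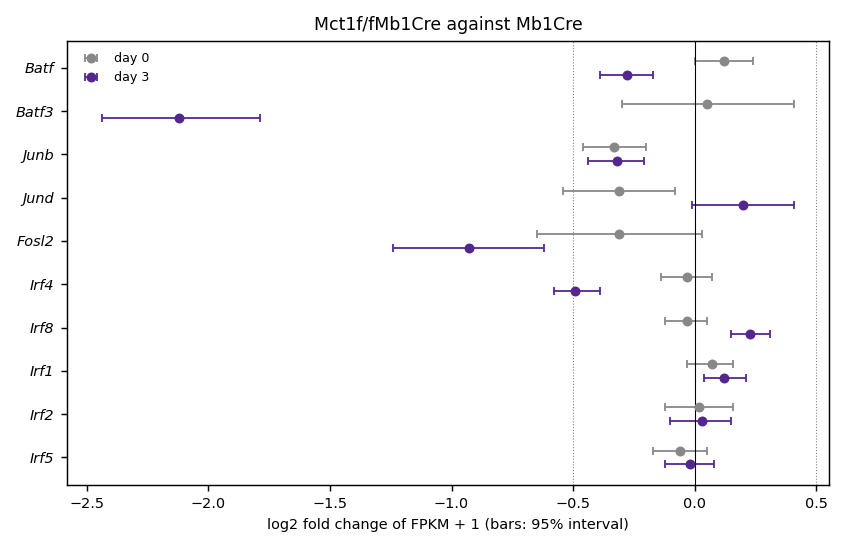
Log2 fold change of FPKM + 1 of *Mct1f/fMb1Cre* against *Mb1Cre* cells for each gene on day 0 (grey) and day 3 (purple), with 95% intervals from limma and dotted lines at 0.5 in size. *Junb* has nearly the same value on both days (-0.33 and -0.32), whereas *Batf3* moves from 0.05 to -2.12.

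The balance between related factors was followed as the log2 ratio of FPKM + 1 within each library, so that low values weigh less in it than in a ratio of FPKM. The log2 ratio of *Irf4* to *Irf8* was -2.23 and -2.32 in *Mb1Cre* and -2.29 and -2.26 in *Mct1f/fMb1Cre* cells on day 0. After activation the ratio was -1.57 and -1.64 in *Mb1Cre* and -2.29, -2.36 and -2.30 in *Mct1f/fMb1Cre* cells. In FPKM, *Irf8* was between 4.77 and 5.2 times *Irf4* in all libraries except the *Mb1Cre* libraries of day 3, where it was 2.98 and 3.14 times *Irf4*. The group mean of the log2 ratio thus moved by 0.67 on activation in *Mb1Cre* cells and by -0.04 in *Mct1f/fMb1Cre* cells.

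*Batf* exceeded *Batf3* in every library, and the gap widened with activation. The log2 ratio of *Batf3* to *Batf* was -1.08 and -0.69 in *Mb1Cre* and -1.05 and -0.85 in *Mct1f/fMb1Cre* cells on day 0. On day 3 it was -2.60 and -2.67 in *Mb1Cre* and -4.52, -4.21 and -4.68 in *Mct1f/fMb1Cre* cells. *Batf* was 1.68 to 2.3 times *Batf3* on day 0, 6.26 and 6.57 times in *Mb1Cre* and 21.2 to 31.2 times in *Mct1f/fMb1Cre* cells on day 3. *Batf* and *Batf3* together reached a mean of 199.9 FPKM (SD 13.4, n = 2) in *Mb1Cre* and 148 FPKM (SD 3.67, n = 3) in *Mct1f/fMb1Cre* cells on day 3, from 20.7 and 22.2 FPKM on day 0.

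**Figure D4:**
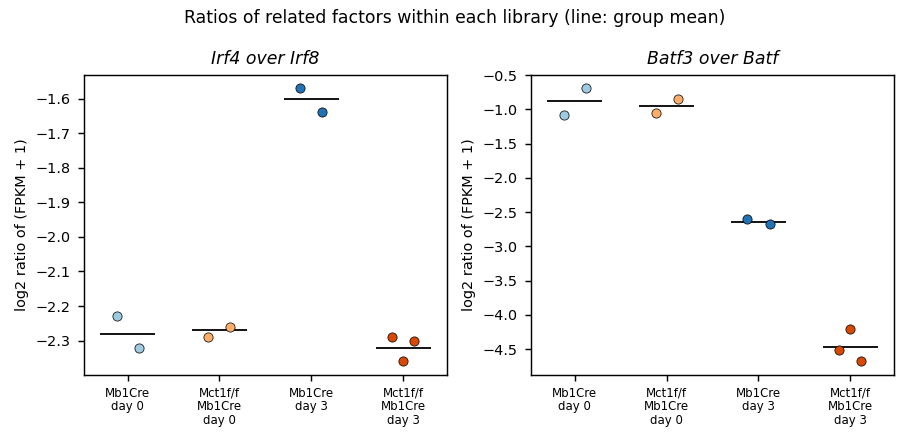
Log2 ratio of FPKM + 1 of *Irf4* to *Irf8* (left) and of *Batf3* to *Batf* (right) in each library, with a line at the group mean and axes that do not start at 0. On the left only the control libraries of day 3 stand apart (-1.57 and -1.64), and on the right both day 3 groups are below day 0, with *Mct1f/fMb1Cre* lowest.

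FPKM values are per length, so levels can also be set in order within a group. On day 0 in *Mb1Cre* cells the order from the highest mean was *Irf8* (239 FPKM), *Jund* (216), *Junb* (159.5), *Irf5* (159), *Irf2* (109.9), *Irf1* (77.8), *Irf4* (48.6), *Batf* (13.6), *Batf3* (7.04) and *Fosl2* (3.67). Only *Junb* and *Irf5* overlapped among these neighbours. On day 3 in the same genotype *Batf* moved from place 8 to place 3, at 173 FPKM between *Irf8* (242) and *Junb* (146), and *Irf4* was at place 5, with 79 FPKM. No neighbours overlapped in that group. In *Mct1f/fMb1Cre* cells *Batf* was also at place 3 on day 3, whereas *Irf4* was at place 8 (56.2 FPKM), below *Irf5*, *Irf1* and *Irf2*. There *Jund* overlapped *Irf8*, and *Irf5* overlapped *Irf1*.

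The genes whose levels followed *Batf3* most closely over the 9 libraries were *Smim3* (Pearson r 0.99 on log2(FPKM + 1)), *Cd80* (0.976), *Eng* (0.973), *Shb* (0.96) and *Ptger4* (0.96). These points share 4 groups, and the coefficients are a description. *Cd80*, a costimulatory ligand for CD28 and CTLA-4, had a mean of 11.5 FPKM in *Mb1Cre* cells on day 3 and means of 5.3 to 5.51 FPKM in the other 3 groups. *Smim3* had 17.8 FPKM in that group and 7.94 to 9.74 FPKM in the others. *Eng*, which encodes the TGF-β coreceptor endoglin, had 5.36 FPKM against 1.93 to 2.11 FPKM.

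Among other AP-1 proteins, 8 of 9 listed genes were tested, and in *Mb1Cre* cells activation called 2 higher and 4 lower (in *Mct1f/fMb1Cre* cells 1 and 3). Of all tested genes, 24.8% were called higher and 33.0% lower in *Mb1Cre* cells, and 23.4% and 33.2% in *Mct1f/fMb1Cre* cells. The stress-induced factor *Atf3* rose from 1.54 and 2.14 to 31.9 and 29.2 FPKM in *Mb1Cre* cells (log2 3.48, SE 0.11), and *Batf2*, another BATF gene, from 0.53 and 1.01 to 1.42 and 1.88 FPKM (log2 0.59). The immediate early gene *Fos* fell from 52.7 and 63.3 to 1.58 and 1.74 FPKM (log2 -4.47, SE 0.101) and its relative *Fosb* from 8.33 and 7.98 FPKM to 0.04 FPKM in both libraries (log2 -3.14). *Jun* stayed between 23.8 and 27.4 FPKM in all 9 libraries. None of the 8 was called between the genotypes on day 3, where 2.42% of all genes were. On day 0, 1 was called, where 0.277% of all genes were. It was *Fosb*, lower in *Mct1f/fMb1Cre* cells at 3.24 and 4.65 FPKM (log2 -0.90, SE 0.125, limma, adjusted p = 0.0118). *Fosb* is named for day 0 after its value was seen. The median log2 change of the 8 genes was -0.38 in *Mb1Cre* activation.

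CNC and MAF proteins, basic leucine zipper factors of oxidative stress and heme responses that include the B cell repressor *Bach2*, were called 2 higher and 6 lower of 9 in *Mb1Cre* activation and 1 higher and 6 lower in *Mct1f/fMb1Cre* cells, with medians of -1.32 and -1.38. The shares of all tested genes were 24.8% higher and 33.0% lower in *Mb1Cre* activation, and 23.4% and 33.2% in *Mct1f/fMb1Cre* activation. *Maff* (0.84) and *Nfe2l1* (0.55) were higher in *Mb1Cre* cells, on the log2 scale. *Maf* fell from 8.61 and 8.99 to 0.28 and 0.46 FPKM. The myeloid marker sums given above fell between the same days, and their part in these values was not tested. Between the genotypes 0 of 9 were called on either day, where 0.277% of all genes were on day 0 and 2.42% on day 3.

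Of the other IRF genes, *Irf7*, the amplifier of type I interferon responses, rose in *Mb1Cre* activation (49.1 and 59.2 to 116 and 112 FPKM, log2 1.07, SE 0.108), and *Irf3* (log2 -0.97) and *Irf9* (log2 -0.65) fell. The same 1 higher and 2 lower were called in *Mct1f/fMb1Cre* cells. Among all genes 24.8% were called higher and 33.0% lower in *Mb1Cre* activation, and 23.4% and 33.2% in *Mct1f/fMb1Cre* activation. Between the genotypes 0 of 3 were called on either day, where 0.277% of all genes were on day 0 and 2.42% on day 3. Of the 5 listed partners with which IRF4 and IRF8 bind at other elements, 4 were called lower in *Mb1Cre* activation and 3 in *Mct1f/fMb1Cre* cells, where 33.0% and 33.2% of all genes were. *Ikzf1* was called in neither genotype (log2 -0.33 and -0.19) and *Tcf3* not in *Mct1f/fMb1Cre* cells (-0.49). The ETS factor *Spib* went from 464 and 496 to 108 and 109 FPKM (log2 -2.13, SE 0.0688), and *Spi1*, which encodes PU.1, from 128 and 145 to 50.3 and 44.7 FPKM (log2 -1.50, SE 0.0733). PU.1 is also a myeloid factor, and the part of the fall in myeloid markers between the same days was not tested. None of the 5 was called between the genotypes.

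Genes upstream of AP-1 and IRF factors were called 2 higher and 2 lower of 8 in either genotype on activation. Of all genes, 24.8% were called higher and 33.0% lower in *Mb1Cre* cells, and 23.4% and 33.2% in *Mct1f/fMb1Cre* cells. *Nfkb1* (log2 1.28 in *Mb1Cre*) and *Stat3* (0.70) rose, and *Stat6*, the transducer of IL-4 signals (-0.83), and the JNK kinase gene *Map2k7* (-0.61) fell. Between the genotypes 0 of 8 were called on either day, where 0.277% of all genes were on day 0 and 2.42% on day 3. *Rel*, the NF-κB subunit known to act on *Irf4*, had 41.3 and 42.3 FPKM in *Mb1Cre* and 30.3, 30.5 and 30.6 FPKM in *Mct1f/fMb1Cre* cells on day 3, a log2 difference of -0.44 (SE 0.0452) that was not past the limit, and is named after its value was seen.

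Among 8 genes listed as possible targets of these factors, 6 were called higher and 2 lower in *Mb1Cre* activation. Whether these factors act on each of them in B cells was not tested. In the same comparison 24.8% of all genes were called higher and 33.0% lower. In *Mct1f/fMb1Cre* cells 5 and 1 were called, where 23.4% and 33.2% of all genes were. The medians of the 8 genes were 1.82 and 1.20. *Ctla4*, an inhibitory receptor gene, rose from 0.35 and 0.52 to 12.1 and 11.6 FPKM in *Mb1Cre* cells and was at 2.23, 1.99 and 1.91 FPKM in *Mct1f/fMb1Cre* cells on day 3. The germinal center repressor *Bcl6* fell (log2 -2.27, SE 0.0688), as did *Ciita* (-0.55), the activator of MHC class II genes. Between the genotypes 0 of 8 were called on day 0, where 0.277% of all genes were. On day 3, 2 were called, both lower, where 1.53% of all genes were called lower. They were *Ctla4* (log2 -2.08, SE 0.0888) and the cytokine gene *Il10* (4.71 and 4.73 FPKM in *Mb1Cre*, 1.59, 2.07 and 2.06 FPKM in *Mct1f/fMb1Cre* cells, log2 -0.98). The gene lists were written with earlier results of these data known, and their counts are descriptions.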

How the data were processed

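RNA of splenic B cells was sequenced and the data assembled by the BGISEQ institute. RNA extraction is given as TRNzol reagent in the labels and as a column kit in the methods. The submitters' processing notes name Bowtie2 and GRCm38 (mm10). The program behind the gene values and the annotation are not given in the sources used here. The authors deposited FPKM values, 1 per gene and library. Read counts were not used here, so depth is unknown and no counting interval is given. FPKM sums ranged from 477078 to 563586, and libraries of a group correlated at 0.993 to 0.998 over genes.

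The values were analysed as log2(FPKM + 1) without further scaling, for genes averaging 1 FPKM or more, using limma 3.58.1 in R 4.3.3 (1 mean for each of 4 groups, empirical Bayes with trend, Benjamini-Hochberg adjustment over 10823 genes), tested on simulated data. Groups came from the sample titles. The members and gene lists were chosen with earlier results of these data known. The text names all members, the label check, up to 2 called genes in each direction per list, and the 5 genes most like *Batf3*. Some genes that this rule names are not reported here. Promoters are RefSeq sequences of GRCm38.p6. Alternatives were other pseudocounts, filters, scalings, log2 limits, no trend, only the compared groups, a replicate block and each library left out. Tables and figures used Python 3.11.15 and matplotlib 3.10.9.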

Additional observations from a re-analysis of the deposited data

Results flagged for a closer look

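The genotype difference of *Batf3* changed between day 0 and day 3 by -2.17 on the log2 scale, the test of the interaction of genotype and day. It rests on the day 3 libraries by which *Batf3* was chosen, so it is no independent evidence. That of *Jund* changed by 0.51, with *Mct1f/fMb1Cre* below the control on day 0 (log2 -0.31) and above it on day 3 (log2 0.20). The *Jund* value was only just past both limits. Its call was lost with *Mb1Cre* replicate 2 of day 0 left out (0.38) and with *Mct1f/fMb1Cre* replicate 1 of day 0 left out (0.37). It was also no longer past the p threshold without *Mb1Cre* replicate 1 (0.53) or 2 (0.50) of day 3. The same held without *Mct1f/fMb1Cre* replicate 2 (0.47) or 3 (0.50) of day 3. Several alternative settings removed the call too, as given below.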

How the results depend on the processing

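Of the members' log2 fold changes over 5 comparisons, 977 values under alternative settings kept direction and side of the threshold, 24 lost a call, 19 gained one and 25 changed sign. *Batf*, *Batf3*, *Irf2* and *Irf5* kept their direction and calls in *Mb1Cre* activation except that a log2 limit of 1 removed *Irf2*. With that limit the members called were 3 and 2 on activation in *Mb1Cre* and *Mct1f/fMb1Cre* cells (5 and 5 at 0.5), 1 on day 3 (2 at 0.5) and 1 in the interaction (2 at 0.5). Of all 10823 tested genes, 3191 and 2994 were called at that limit on activation, 54 on day 3 and 56 in the interaction. Without a limit the members called were 6 in *Mb1Cre* and 9 in *Mct1f/fMb1Cre* activation, where 84.6% and 85.5% of all genes were. They were 1 on day 0, 6 on day 3 and 5 in the interaction, where 0.416%, 15.2% and 9.42% of all genes were. On day 3 the count was 1 with a pseudocount of 5 and 1 with a mean of at least 5 FPKM, which leaves *Fosl2* untested. In the interaction it was 1 with pseudocounts of 0.1 and 5, no filter, median-of-ratios scaling, quantile normalization and no trend, where *Jund* lost its call. With 1 library left out, the counts were 2 to 3 on day 3 and 1 to 4 in the interaction, with 4 without *Mb1Cre* replicate 1 of day 0, and were 5, 5 and 0 throughout in the other comparisons.

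A replicate block gave 5 and 5 members on activation, 0 on day 0, 3 on day 3 (*Irf4* added) and 1 in the interaction. Same-numbered libraries deviated from their group means with correlations of -0.122 to 0.0867, so no pairing by number was seen. In a group of 2 libraries the deviations mirror each other, so these values cannot show that the libraries were unpaired. The Y-linked gene *Ddx3y* had 0.24 and 0.02 FPKM in *Mb1Cre* on day 0 and 14.7 and 16.5 FPKM on day 3. The *Mb1Cre* libraries of the 2 days were therefore not from the same mice. The same holds for *Mct1f/fMb1Cre* replicate 2, with 0.2 FPKM on day 0 and 16.9 FPKM on day 3. With the *Mb1Cre* numbers crossed between the days, a numbering chosen after seeing the data and not a pairing by mouse, 5 members and 6257 genes were called in *Mb1Cre* activation.

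Signs turned for *Irf8* in *Mb1Cre* activation (-0.19 with equal totals, -0.17 with quantile normalization), for *Irf1* (0.005 and 0.07) and *Junb* (0.09 and 0.10) on activation and *Irf5* on day 3 (0.001) with median-of-ratios scaling, and for *Fosl2* in *Mb1Cre* activation (0.13, quantile normalization). The cause was not tested. With 1 library left out, signs turned on day 0 for *Batf3* (-0.18 to 0.29), *Irf4* (-0.09 to 0.02) and *Irf2* (-0.0007 to 0.04), on day 3 for *Irf2* (-0.05 to 0.10) and *Irf5* (-0.05 to 0.01), in the interaction for *Irf2* (-0.07 to 0.08), *Irf5* (-0.01 to 0.09) and *Junb* (-0.06 to 0.07), and in *Mb1Cre* activation for *Fosl2* (-0.46 to 0.02). With a pseudocount of 5 the *Batf3* to *Batf* ratio moved by -3.11 on activation in *Mct1f/fMb1Cre* cells (-3.52 with 1) and differed by -1.34 between the genotypes on day 3 (-1.83 with 1). The day 0 genotype differences of the ratios turned sign with 1 library left out, from -0.04 to 0.05 for *Irf4* to *Irf8* and from -0.27 to 0.13 for *Batf3* to *Batf*.

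Of all tested genes, 30 were called on day 0, 13 without a filter, 2 with only the compared groups, 16 with a limit of 1, and 22 to 101 with 1 library left out (101 without *Mb1Cre* replicate 2 and 67 without *Mct1f/fMb1Cre* replicate 2 of day 0). On day 3 there were 262, with 421 and 120 at pseudocounts of 0.1 and 5, 54 at a limit of 1 and 1650 at none. The interaction had 350, with 156 at a pseudocount of 5, 56 at a limit of 1 and 1020 at none. Activation had 6258 and 6120, with 3191 and 2994 at a limit of 1 and 9258 at none in *Mct1f/fMb1Cre* cells. Calls higher were 42.9% and 41.4% on activation, 31.8% and 31.6% with equal library totals, 55.7% and 55.2% with median-of-ratios scaling and 51.3% and 51.7% with quantile normalization. Depth is unknown, and precision rests on 2 or 3 libraries a group.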
